A study of Malus domestica with 36 samples.

Results

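Homeodomain transcription factors are DNA-binding proteins that share a homeodomain, a short helical fold that reads AT-rich sites in front of target genes. In plants the family includes the homeodomain leucine zipper factors, known for roles in the epidermis and in responses to water deficit, and the KNOTTED-like factors, known in maize and Arabidopsis for their work in the shoot meristem. The data described here are the levels of 8 genes with homeodomain names, out of 57423 genes in the deposited table, in the peel of stored 'Granny Smith' apples. The 8 are HD1, HD3, HD6, HD11, HD16, HD7 (LOC103444266), HD12 (LOC103428301) and HD21 (LOC103401624). HD11 also carries the name KNAP3, for a KNOTTED-like gene of apple. For the other 7, the table and the gene table matched to it give a name alone, so neither a class nor a role within the family is stated for them.

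The 8 genes were chosen by measured values of these same libraries, among them their fold changes between low oxygen and RA storage. Low oxygen against RA is therefore given below as a description, with fold changes, standard errors and the overlap of libraries, and with no test. The same holds for differences between the responses of low oxygen and RA, which are built from those values. The comparisons of SL, of time and of both low-oxygen regimes with each other were tested, but the list is not an independent sample for them either, so each count is set beside the share of all genes called in the same comparison.

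RNA from the peel was sequenced in 36 libraries, which the labels place in 12 groups of 3 biological replicates. Fruit were held under DCA_CF (oxygen below 1%), under ULO (1% oxygen) or under RA, each with and without the tag SL and each at the times T2 and T1. The labels do not spell out RA, SL or CF, nor the length of T2 and T1, and say nothing of how many fruit went into a replicate. All groups share the cultivar and the tissue, and no group is labelled as fruit before storage. The reads were summarised by the authors as FPKM, which divides the fragments of a gene by its length and by the size of the library, and the read totals behind them are not known. Summed FPKM ran from 689868 to 790211 over the libraries, and 33512 to 37276 genes were above 0. In the check of the labelled tissue, 1 of 21 peel markers could be matched by name, the lipid transfer protein gene MALD3, at group means of 1856 to 32820 FPKM. Photosynthetic markers had no match among 5. Of 5 vascular markers 2 were matched, the sucrose transporter SUT1 at group means of 12.1 to 44.9 FPKM and the sorbitol transporter SOT5 at 1.22 to 132 FPKM.

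All 8 homeodomain genes were at or above 1 FPKM in each of the 36 libraries, so none entered the tests through 1 group alone. FPKM is a level per gene length, so the genes can be ranked against each other. HD7 had the highest single library at 359.7 FPKM, followed by HD16 at 269 FPKM, HD12 at 192 FPKM and HD21 at 188 FPKM. HD11, HD6, HD3 and HD1 peaked lower, at 59.95, 31.3, 23.6 and 23.6 FPKM. The genes also differed in how far they ranged. The highest group mean of HD7 was 16.8 times its lowest, that of HD16 was 11.9 times, and that of HD1 was 8.49 times. The same ratio was 5.43 for HD12, 5.17 for HD11, 4.58 for HD21, 3.2 for HD3 and 2.24 for HD6. Replicates lay close together, with coefficients of variation within a group of 0.401% to 18.3%, the widest being HD1 in ULO at T2 without SL.

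**Figure D1:**
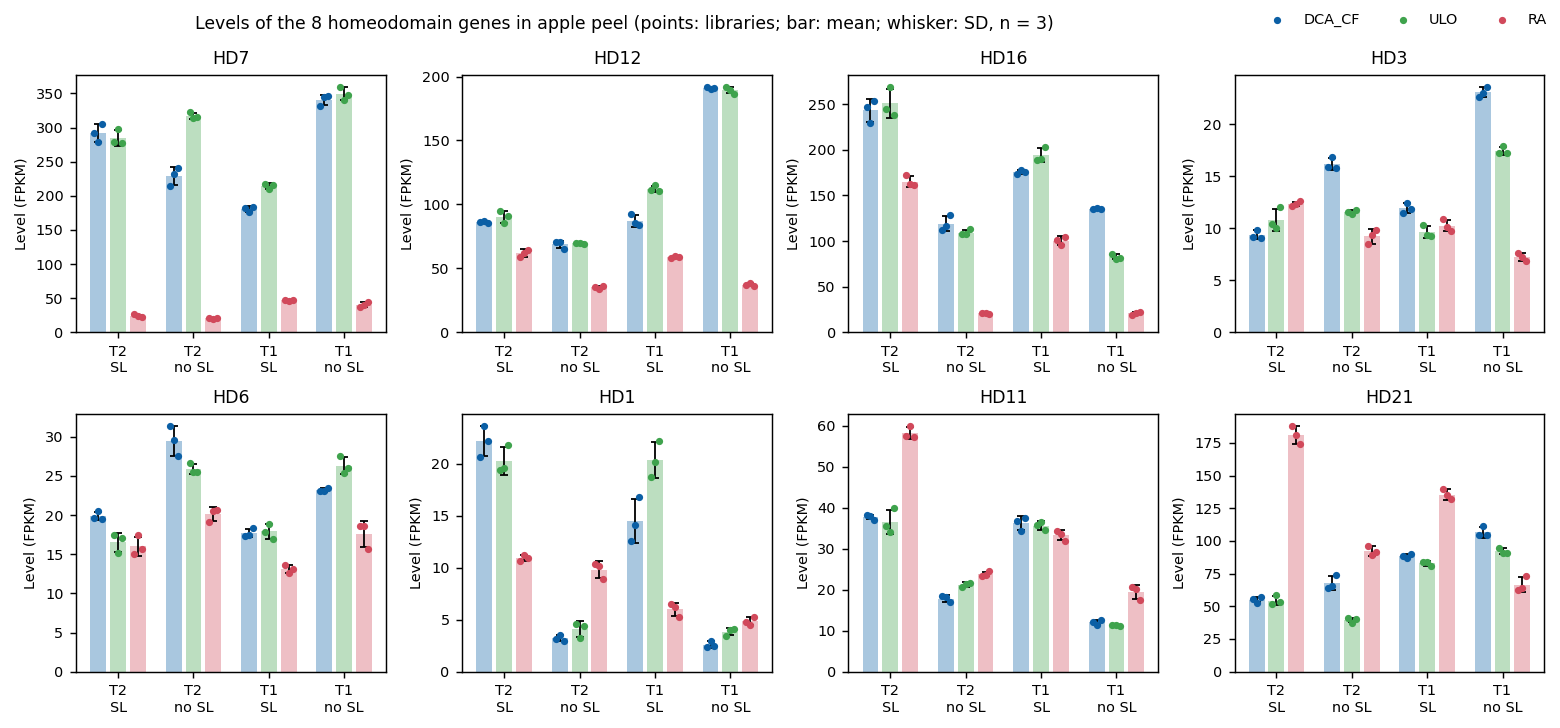
Level in FPKM (vertical axis, linear, own scale per gene) of the 8 homeodomain genes in the 12 groups, arranged by time and SL, with DCA_CF, ULO and RA side by side; points are libraries, bars are means and whiskers are SD of 3 libraries. HD7 is at 176 FPKM or higher in the low-oxygen libraries and at 48.0 FPKM or lower in the RA libraries, while the highest bars of HD21 and HD11 are those of RA with SL at T2.

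HD7 separated low oxygen from RA in every setting. At T2 with SL it had 292, 278 and 305 FPKM in DCA_CF libraries and 279, 298 and 277 FPKM in ULO libraries, against 26.3, 23.5 and 22.6 FPKM in RA libraries. At T2 without SL the DCA_CF libraries held 215, 232 and 240 FPKM and the ULO libraries 322, 314 and 316 FPKM, against 21.5, 20.3 and 20.5 FPKM in RA. The RA libraries were lower throughout T2, with no overlap. At T1 with SL, HD7 stood at 182, 176 and 184 FPKM in DCA_CF libraries and 217, 209.9 and 216 FPKM in ULO libraries, against 46.7, 46.3 and 48.0 FPKM in RA libraries. At T1 without SL it reached 331, 344 and 346 FPKM in DCA_CF and 359.7, 341 and 347 FPKM in ULO, against 37.5, 39.5 and 44.8 FPKM in RA. On the log2(FPKM + 1) scale used for all differences here, the gap was widest at T2 and narrowest at T1 with SL. ULO minus RA was 3.51 ± 0.0522 at T2 with SL, 3.87 at T2 without SL, 2.17 at T1 with SL and 3.08 at T1 without SL, with the same standard error. DCA_CF minus RA, which shares the RA libraries, was 3.55, 3.40, 1.92 and 3.04 in the same order. In bulk peel, a lower level cannot be told apart from fewer cells of the type that makes the RNA. SOT5, on the vascular list, had group means of 5.18 FPKM or lower in low oxygen at T2 and 86.1 FPKM or higher in RA at T2. SUT1, the other matched vascular marker, went the other way, with a higher group mean in both low-oxygen regimes than in RA in every setting, as at T2 without SL with 17.0 FPKM in DCA_CF and 17.4 FPKM in ULO, against 12.1 FPKM in RA. Both markers together, most of it SOT5 in RA, summed to 19.4 to 48.4 FPKM in the low-oxygen groups and 73.2 to 144 FPKM in the RA groups over both times. Their part in these differences was not tested.

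HD12 was also above RA in low oxygen in every setting, with the largest distance at T1 without SL. There it had 192, 190.4 and 191 FPKM in DCA_CF libraries and 192, 189.7 and 187 FPKM in ULO libraries, against 37.1, 38.5 and 36.4 FPKM in RA libraries. The fold was 5.12 in DCA_CF and 5.07 in ULO. At T1 with SL the level was 92.8, 85.2 and 84.1 FPKM in DCA_CF libraries and 111, 115 and 110.4 FPKM in ULO libraries, against 58.4, 59.8 and 59.0 FPKM in RA libraries. There the RA libraries were higher and the low-oxygen libraries lower than without SL. At T2 HD12 averaged 86.2 ± 0.734 FPKM in DCA_CF and 90.5 ± 4.64 FPKM in ULO with SL, against 61.9 ± 2.88 FPKM in RA with SL (SD, n = 3 each). The means without SL at T2 were 68.7 ± 2.82 FPKM in DCA_CF and 69.8 ± 0.608 FPKM in ULO, against 35.2 ± 1.18 FPKM in RA. The difference from RA on the log2 scale was 0.47 to 0.97 over both regimes at T2, and 2.33 in DCA_CF and 2.31 in ULO at T1 without SL.

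HD16 was low in RA without SL and high in every other group. Without SL at T2 it had 112, 116 and 128 FPKM in DCA_CF libraries and 107.6, 107.5 and 113 FPKM in ULO libraries, against 21.7, 21.5 and 20.3 FPKM in RA libraries. Without SL at T1 the values were 135, 136 and 135 FPKM in DCA_CF and 85.6, 80.4 and 81.7 FPKM in ULO, against 19.5, 21.7 and 22.2 FPKM in RA. RA without SL therefore lay well below all other groups at both times. With SL at T2 the gene had 246, 229 and 254 FPKM in DCA_CF and 245, 269 and 238 FPKM in ULO, against 172, 162 and 161 FPKM in RA. Low oxygen minus RA was 0.55 ± 0.052 in DCA_CF and 0.60 in ULO at T2 with SL, and 2.43 and 2.32 at T2 without SL.

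HD3 and HD6, with low levels and narrow ranges, had their highest group means in low oxygen without SL. HD3 had 22.7, 23.1 and 23.6 FPKM in DCA_CF libraries and 17.2, 17.9 and 17.3 FPKM in ULO libraries at T1 without SL, against 7.61, 7.22 and 6.84 FPKM in RA libraries. HD3 at T2 without SL averaged 16.2 ± 0.565 FPKM in DCA_CF and 11.6 ± 0.198 FPKM in ULO, against 9.23 ± 0.708 FPKM in RA. With SL the order turned at T2, where HD3 averaged 9.38 ± 0.431 FPKM in DCA_CF and 10.8 ± 1.06 FPKM in ULO, against 12.3 ± 0.233 FPKM in RA. HD6 averaged 29.5 ± 1.91 FPKM in DCA_CF and 25.9 ± 0.679 FPKM in ULO at T2 without SL, against 20.1 ± 0.891 FPKM in RA. At T2 with SL the HD6 libraries of ULO (17.4, 15.1 and 17.0 FPKM) overlapped those of RA (15.0, 17.4 and 15.6 FPKM).

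HD1 changed sides with SL. Without SL its libraries were lower in low oxygen than in RA, at 3.10, 3.54 and 2.98 FPKM in DCA_CF and 4.61, 3.23 and 4.42 FPKM in ULO at T2, against 10.4, 10.1 and 8.92 FPKM in RA. With SL they were higher, at 20.7, 23.6 and 22.2 FPKM in DCA_CF and 19.3, 19.6 and 21.7 FPKM in ULO at T2, against 10.6, 11.2 and 10.9 FPKM in RA. The same turn was seen at T1. With SL at T1 HD1 stood at 12.6, 14.0 and 16.8 FPKM in DCA_CF and 18.7, 20.1 and 22.2 FPKM in ULO, against 6.50, 6.18 and 5.30 FPKM in RA. Without SL at T1 it stood at 2.34, 2.99 and 2.50 FPKM in DCA_CF and 3.45, 4.02 and 4.11 FPKM in ULO, against 4.82, 4.47 and 5.22 FPKM in RA. The groups did not overlap in any of these settings. The peel marker MALD3 was highest in the same low-oxygen groups with SL. It averaged 28423 ± 1068 FPKM in DCA_CF and 32820 ± 1210 FPKM in ULO at T2 with SL, against 4512 ± 245 FPKM in RA with SL (SD, n = 3 each). Without SL at T2 it was also higher in low oxygen, where HD1 was lower, at 8384 FPKM in DCA_CF and 11201 FPKM in ULO, against 1856 FPKM in RA. As the 1 gene matched of 21 peel markers, MALD3 alone does not measure how much peel a library holds. The part of MALD3 in the HD1 levels was not tested.

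HD11 and HD21 had their highest levels in RA with SL at T2. HD11, the KNOTTED-like gene, had 38.2, 38.0 and 37.1 FPKM in DCA_CF libraries and 35.5, 34.1 and 39.9 FPKM in ULO libraries of that setting, against 57.5, 59.95 and 57.3 FPKM in RA libraries. HD21 had 55.5, 52.8 and 57.0 FPKM in DCA_CF and 51.6, 58.4 and 53.3 FPKM in ULO there, against 188, 181 and 174 FPKM in RA. HD21 was below RA in low oxygen in 3 of 4 settings, with log2 differences in ULO of -1.72 at T2 with SL, -1.20 at T2 without SL and -0.70 at T1 with SL. At T1 without SL the sign was the other way, with 104, 111 and 104 FPKM in DCA_CF and 94.6, 91.1 and 91.1 FPKM in ULO, against 62.3, 64.3 and 73.4 FPKM in RA. The matched gene table has HD21 overlap another gene, LOC139191731, which is not a row of the deposited table. As the libraries do not keep strand, reads of both genes would not be separated. The other 7 homeodomain genes overlap no gene there.

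**Figure D2:**
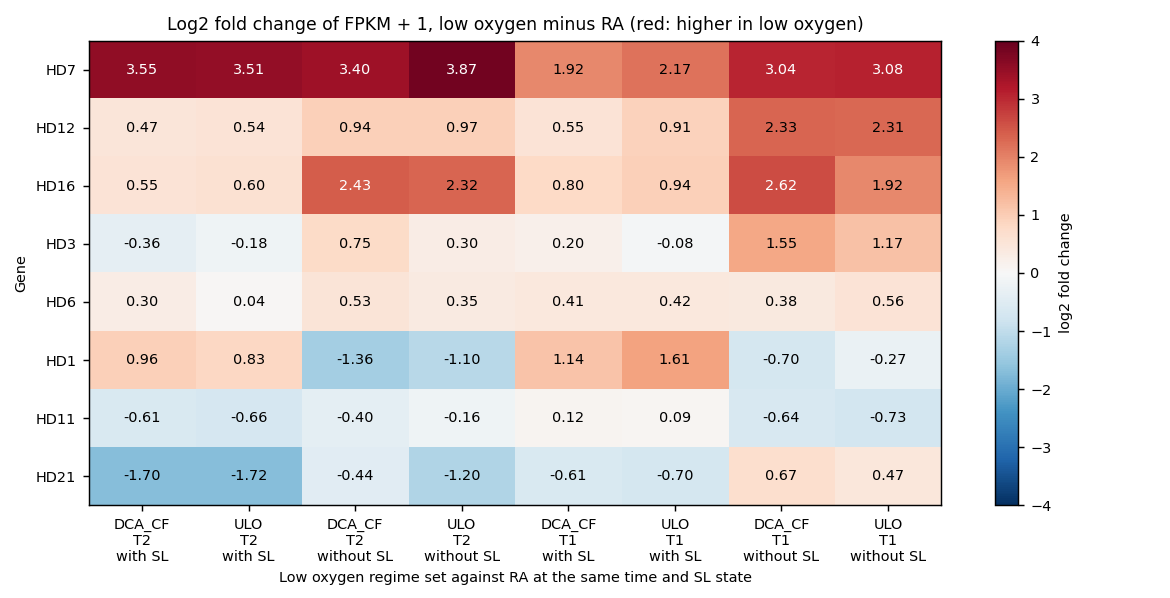
Log2 fold change of low oxygen minus RA on the log2(FPKM + 1) scale for each gene (rows) in the 8 comparisons (columns). HD7, HD12, HD16 and HD6 are positive throughout, with HD6 at 0.041 in ULO at T2 with SL. HD1 changes sign between the comparisons with and without SL, and HD21 is negative except at T1 without SL.

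Counted over the 8 genes, all libraries of low oxygen lay above all of RA for 5 genes in DCA_CF and 4 in ULO at T2 with SL, and below for 3 genes in each regime. At T2 without SL the counts were 5 above and 3 below in both regimes. At T1 the counts were 6 above and 1 below with SL, and 6 above and 2 below without SL, again in both regimes. Of all 32923 genes tested, 23.7% lay above and 31.4% below in DCA_CF and 21.1% above and 30.9% below in ULO at T2 with SL. At T2 without SL 47.5% lay above and 25.2% below in DCA_CF, and 47.0% above and 26.9% below in ULO. The shares at T1 with SL were 36.2% above and 20.2% below in DCA_CF and 28.6% above and 29.8% below in ULO. At T1 without SL they were 33.4% above and 37.0% below in DCA_CF and 34.3% above and 31.7% below in ULO. The median log2 difference over the 8 genes was 0.38 in DCA_CF and 0.29 in ULO at T2 with SL, 0.64 and 0.32 at T2 without SL, 0.48 and 0.67 at T1 with SL, and 1.11 and 0.86 at T1 without SL. The median over all genes tested lay between -0.034 and 0.24 in these comparisons. Since low oxygen against RA helped to choose the genes, nothing is read from these counts. The direction of 3 small differences rests on the scaling or on 1 library. As alternatives to the deposited scaling, each library was rescaled by its median ratio to the geometric mean of each gene (RLE size factors) or by its upper quartile. ULO minus RA in HD3 at T1 with SL was -0.08 as deposited and 0.017 with upper-quartile scaling. DCA_CF minus RA in HD11 at T1 with SL was 0.12 as deposited and -0.0027 with RLE size factors. HD6 in ULO at T2 with SL, at 0.041, came to -0.000297 without RA replicate a.

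DCA_CF and ULO differ in how little oxygen they leave, and the log2 differences of the 8 genes between them lay between -0.47 and 0.76. With SL at T2, HD6 alone passed the threshold of limma (Benjamini-Hochberg FDR of 0.05 over all genes tested), where 1.59% of all genes were called higher and 2.10% lower. It averaged 19.9 ± 0.559 FPKM in DCA_CF and 16.5 ± 1.25 FPKM in ULO (SD, n = 3 each), a log2 difference of 0.25 ± 0.0616 with an adjusted p of 0.0149 in limma. That call was lost without DCA_CF replicate b (limma adjusted p = 0.0773) and without ULO replicate b (limma adjusted p = 0.128). Without SL at T2, 3 genes were higher and 2 lower in DCA_CF, where 15.1% of all genes were called higher and 7.84% lower (65.8% of calls higher, and 51.4% with RLE size factors and 51.1% with upper-quartile scaling). In this comparison 2 genes were higher and 3 lower under either other scaling and without replicate b of either group. HD21 rose there with 64.0, 65.3 and 73.9 FPKM in DCA_CF, against 40.7, 37.6 and 40.3 FPKM in ULO (0.76 ± 0.0547, limma adjusted p = 1.54e-11). HD3 rose by 0.45 ± 0.0555 (limma adjusted p = 3.87e-07), and HD7 fell by 0.47 ± 0.0522 on the log2 scale (limma adjusted p = 6.58e-08). The other calls were HD11 at -0.24 and HD6 at 0.18, and HD6 missed the threshold under both other scalings and in 4 of 6 refits that each left out 1 library, DCA_CF replicate a or b or ULO replicate b or c (limma adjusted p up to 0.17).

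At T1 with SL, 1 gene was higher and 4 lower in DCA_CF than in ULO, beside 23.9% of all genes called higher and 7.40% lower. The share of calls that were higher, 76.4% as deposited, was 56.1% with RLE size factors and 43.6% with upper-quartile scaling. HD3 rose by 0.28 ± 0.0555, while HD12 fell by 0.36 ± 0.0374, HD1 by 0.47 ± 0.103 and HD7 by 0.24 ± 0.0522 (limma adjusted p of 0.000199, 8.14e-09, 0.000656 and 0.000522). With upper-quartile scaling no gene was higher and 6 were lower, as HD3 missed the threshold (limma adjusted p = 0.0843) while HD6 and HD11 passed it at -0.18 and -0.15 (limma adjusted p = 0.0087 and 0.012). The remaining lower gene, HD16 at -0.14, missed the threshold in 5 of 6 refits that each left out 1 library, all but ULO replicate a, with adjusted p up to 0.187 in limma. It also missed it with no filter on low genes (limma adjusted p = 0.0553). Without SL at T1, 3 genes were higher and 2 lower, beside 16.6% of all genes higher and 24.4% lower. HD16 rose with the libraries of DCA_CF at 135 to 136 FPKM, against 80.4 to 85.6 FPKM in ULO (0.71 ± 0.052, limma adjusted p = 1.05e-11). HD3 rose by 0.38 ± 0.0555 and HD21 by 0.21 ± 0.0547, while HD1 fell by 0.43 ± 0.103 and HD6 by 0.17 ± 0.0616 on the log2 scale. The HD6 call was lost in 3 of 6 refits that left out a library, DCA_CF replicate a or b or ULO replicate a (limma adjusted p up to 0.112). For HD7 the difference was -0.036 ± 0.0522 here and was not called.

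The tag SL went with changes in most of the 8 genes, not always in the same direction in each storage regime. In RA, 6 genes rose and 1 fell with SL at T2, where 27.3% of all genes were called higher and 31.6% lower, and 7 rose and 1 fell at T1, where 26.4% were called higher and 35.3% lower. HD16 moved furthest. It had 172, 162 and 161 FPKM with SL in RA at T2, against 21.7, 21.5 and 20.3 FPKM without SL. This was a rise of 2.91 ± 0.052 (limma adjusted p = 3.57e-26). At T1 it had 101, 95.4 and 105 FPKM with SL in RA, against 19.5, 21.7 and 22.2 FPKM without SL (2.20 ± 0.052, limma adjusted p = 2.08e-23). HD11 rose by 1.25 ± 0.0524 at T2 and 0.75 at T1, HD21 by 0.97 ± 0.0547 and 1.02, and HD12 by 0.80 ± 0.0374 and 0.65. HD6 was the 1 gene that fell, by 0.31 ± 0.0616 at T2 and 0.39 at T1. HD1 in RA at T1 passed the threshold at 0.26 ± 0.103 (limma adjusted p = 0.0319) but lost it in 4 of 6 refits without 1 library, replicate a or b of either group, with adjusted p up to 0.132. MALD3 averaged 4512 FPKM with SL in RA at T2, against 1856 FPKM without SL, and 4158 FPKM with SL at T1, against 7794 FPKM without SL, so it was higher with SL at T2 and lower at T1. Its part in these changes was not tested.

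In low oxygen the gene that moved most with SL was HD1. In DCA_CF at T2 it had 20.7, 23.6 and 22.2 FPKM with SL, against 3.10, 3.54 and 2.98 FPKM without SL (2.46 ± 0.103, limma adjusted p = 7.63e-18). The rise was 2.07 ± 0.103 in ULO at T2, 2.10 in DCA_CF at T1 and 2.13 in ULO at T1. Because 1 was added to FPKM before the logarithm, these values understate the change of a gene whose level without SL is near 3 FPKM. HD11 rose by 1.04 ± 0.0524 in DCA_CF and 0.75 in ULO at T2, and by 1.51 and 1.58 at T1. HD16 rose by 1.03 ± 0.052 in DCA_CF and 1.19 in ULO at T2, and by 0.38 and 1.22 at T1. MALD3 also averaged more with SL, at 28423 FPKM in DCA_CF and 32820 FPKM in ULO at T2, against 8384 and 11201 FPKM without SL, and at 22322 FPKM in DCA_CF and 32735 FPKM in ULO at T1, against 8591 and 10314 FPKM without SL. Its part in the changes with SL in low oxygen was not tested. HD6 fell in each of the 4 settings, by 0.37 to 0.62 on the log2 scale, and HD3 fell in 3 of them, by 0.73 to 0.90.

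In DCA_CF, HD12 and HD7 changed with SL in opposite ways at the 2 times. HD12 had 92.8, 85.2 and 84.1 FPKM with SL in DCA_CF at T1, against 192, 190.4 and 191 FPKM without SL (-1.12 ± 0.0374, limma adjusted p = 3.19e-20). At T2 it had 86.3, 86.9 and 85.5 FPKM with SL in DCA_CF, against 70.4, 70.3 and 65.5 FPKM without SL (0.32 ± 0.0374, limma adjusted p = 1.77e-08). HD7 fell with SL at T1, by 0.91 ± 0.0522 in DCA_CF and 0.70 in ULO, and rose by 0.35 in DCA_CF at T2 (limma adjusted p = 1.35e-06). In ULO at T2 the value for HD7 was -0.16, with 0.10 under RLE size factors and 0.17 under upper-quartile scaling, so its direction there rests on the scaling. The same holds for HD3 in ULO at T2 (-0.092 as deposited, 0.15 and 0.21 under those scalings) and for HD21 in DCA_CF at T2 (-0.29, 0.0019 and 0.073). HD21 in ULO was 0.45 at T2 (limma adjusted p = 4.52e-08) and -0.15 at T1, and the value at T1 came to 0.010 under upper-quartile scaling. That call was also lost with RLE size factors (limma adjusted p = 0.562) and without replicate a of ULO or replicate c of ULO with SL (limma adjusted p = 0.065 and 0.0639). Over the list, 5 genes rose and 3 fell in DCA_CF at T2, beside 16.7% of all genes called higher and 45.5% lower, and 5 rose and 2 fell in ULO at T2, beside 18.6% higher and 43.2% lower. With upper-quartile scaling the counts in ULO at T2 were 7 and 1. Of all calls at T2, 26.9% in DCA_CF and 30.1% in ULO were higher as deposited, against 45.2% and 46.4% with RLE size factors and 49.9% and 50.4% with upper-quartile scaling. At T1, 3 rose and 5 fell in each regime, beside 37.0% of all genes higher and 29.8% lower in DCA_CF and 27.3% higher and 37.9% lower in ULO. The median over all genes at T2 was -0.24 in DCA_CF and -0.21 in ULO as deposited, and RLE size factors moved it by 0.20 and 0.17.

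**Figure D3:**
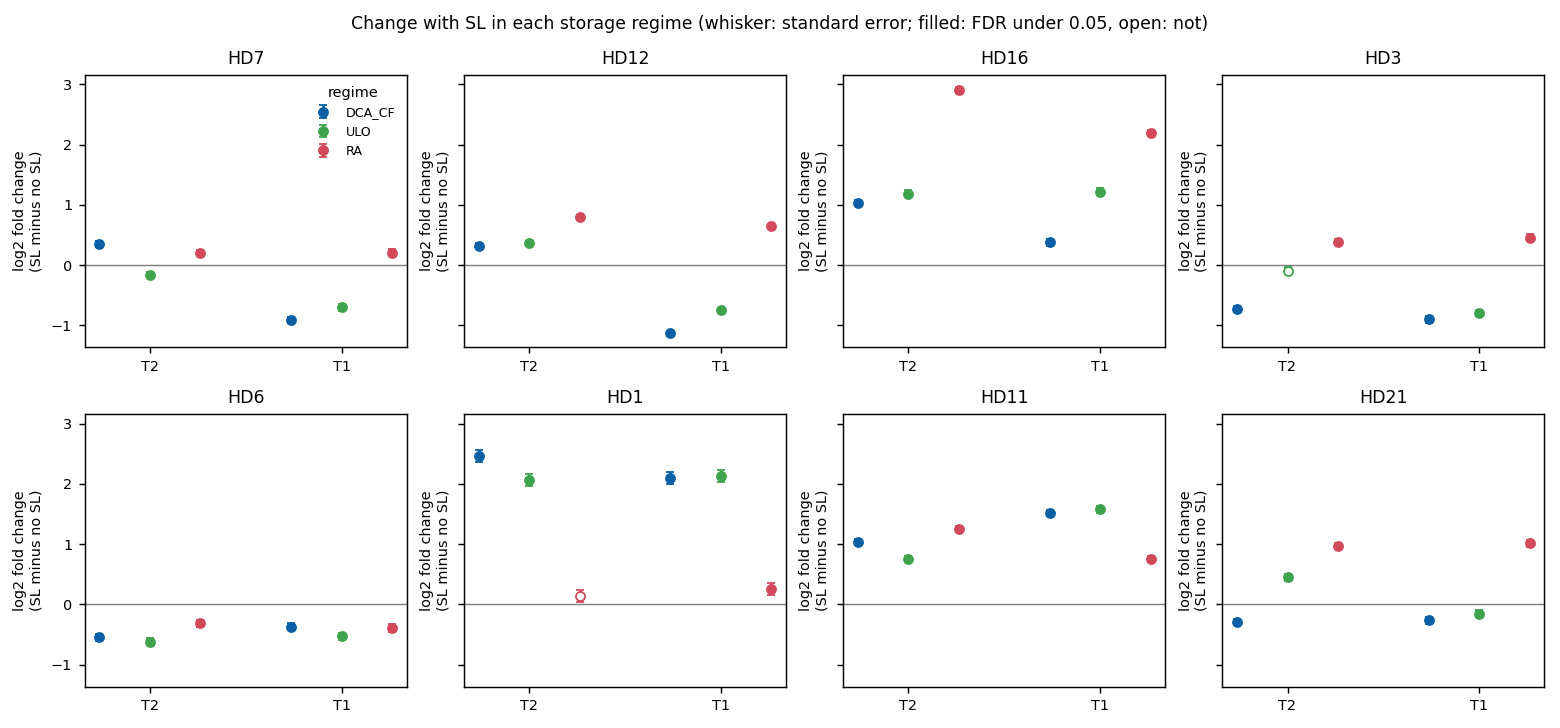
Log2 fold change with SL minus without SL on the log2(FPKM + 1) scale (vertical axis) for each gene, by time (horizontal axis) and regime (colour); whiskers are standard errors, and filled points passed an FDR of 0.05 in limma. HD16 in RA, with values of 2.91 and 2.20, lies above its low-oxygen points. HD1 in low oxygen, with values of 2.07 to 2.46, lies above its RA points.

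Differences between the SL response in low oxygen, taken as the mean of DCA_CF and ULO, and that in RA are given as values with no test. HD1 had the largest positive difference, 2.12 ± 0.126 at T2 and 1.86 at T1. HD16 had differences of -1.80 ± 0.0636 at T2 and -1.40 at T1, although it rose with SL in each regime. HD12 had -0.45 ± 0.0458 at T2 and -1.58 at T1, HD3 had -0.80 ± 0.068 and -1.30, and HD21 had -0.89 ± 0.067 and -1.22. HD7 stood at -0.11 ± 0.064 at T2 and -1.02 at T1. HD11 differed in sign between times, at -0.36 ± 0.0642 at T2 and 0.79 at T1, but its value at T2 was -0.076 with RLE size factors and -0.091 with upper-quartile scaling. HD6 at T2 was at -0.27, and at 0.014 and -0.004 under those scalings. HD7 at T2 turned to 0.18 and 0.17. The median over all genes was -0.23 at T2 and 0.048 at T1.

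The change over storage time is given as T2 minus T1. In RA with SL, 6 genes were higher and 1 lower at T2 than at T1, beside 21.0% of all genes called higher and 14.5% lower, and in RA without SL 5 were higher and 1 lower, beside 25.2% higher and 23.4% lower. Of those 5, HD6 (0.19, limma adjusted p = 0.0135) lost its call without T1 replicate c (0.11, limma adjusted p = 0.156) and without T2 replicate c (limma adjusted p = 0.0553). With SL, 59.1% of the calls over all genes were higher, against 47.3% with RLE size factors and 48.7% with upper-quartile scaling. HD7 was the lower gene in both. It had 26.3, 23.5 and 22.6 FPKM at T2 with SL in RA, against 46.7, 46.3 and 48.0 FPKM at T1 (-0.94 ± 0.0522, limma adjusted p = 4.36e-14). Without SL in RA it had 21.5, 20.3 and 20.5 FPKM at T2, against 37.5, 39.5 and 44.8 FPKM at T1 (-0.93 ± 0.0522, limma adjusted p = 1.52e-14). HD1 rose by 0.77 ± 0.103 with SL and 0.89 without SL, HD11 by 0.79 ± 0.0524 and 0.29, and HD21 by 0.42 ± 0.0547 and 0.46. HD16 rose in RA with SL by 0.71 ± 0.052, and without SL its means were 21.2 ± 0.753 FPKM at T2 and 21.1 ± 1.47 FPKM at T1 (SD, n = 3 each).

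In low oxygen without SL, HD12 and HD21 were the genes that fell most. HD12 had 70.4, 70.3 and 65.5 FPKM at T2 in DCA_CF, against 192, 190.4 and 191 FPKM at T1 (-1.46 ± 0.0374, limma adjusted p = 7.10e-23). In ULO it had 70.3, 70.1 and 69.1 FPKM at T2, against 192, 189.7 and 187 FPKM at T1 (-1.43 ± 0.0374, limma adjusted p = 2.21e-22). HD21 fell by 1.20 ± 0.0547 in ULO and 0.65 in DCA_CF, while it rose in RA. HD3 fell by 0.49 ± 0.0555 in DCA_CF and 0.55 in ULO, and HD7 by 0.57 ± 0.0522 in DCA_CF and 0.14 in ULO. The HD7 call in ULO was lost in 3 of 6 refits without 1 library, T1 replicate a or T2 replicate b or c (limma adjusted p up to 0.0898). HD11 rose by 0.53 ± 0.0524 in DCA_CF and 0.86 in ULO. HD16 moved in opposite ways in the 2 regimes, at -0.19 ± 0.052 in DCA_CF and 0.40 in ULO. In all, 2 genes rose and 5 fell in DCA_CF, beside 41.2% of all genes called higher and 27.9% lower, and 2 rose and 4 fell in ULO, beside 36.7% higher and 28.4% lower. In DCA_CF 59.6% of the calls over all genes were higher, against 49.3% under each other scaling. HD6 in DCA_CF (0.33) was among those that rose and missed the threshold under both other scalings.

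With SL in low oxygen HD7 rose with time. It had 292, 278 and 305 FPKM at T2 in DCA_CF, against 182, 176 and 184 FPKM at T1 (0.69 ± 0.0522, limma adjusted p = 9.53e-12). In ULO it had 279, 298 and 277 FPKM at T2, against 217, 209.9 and 216 FPKM at T1 (0.41 ± 0.0522, limma adjusted p = 4.80e-07). HD16 rose by 0.46 ± 0.052 in DCA_CF and 0.37 in ULO, and HD21 fell by 0.67 ± 0.0547 and 0.60. HD1 rose in DCA_CF by 0.59 ± 0.103 (limma adjusted p = 2.97e-05), while in ULO it averaged 20.2 ± 1.31 FPKM at T2 and 20.3 ± 1.72 FPKM at T1 (SD, n = 3 each). HD12 fell in ULO by 0.31 ± 0.0374, and in DCA_CF its value of -0.017 turned to 0.087 with RLE size factors and 0.16 with upper-quartile scaling. Of the 8 genes, 6 were called in DCA_CF, 4 up and 2 down, beside 40.7% of all genes called in either direction. Under either other scaling the counts in DCA_CF were 6 up and 2 down. In ULO 3 were up and 2 down, beside 14.7% of all genes higher and 15.0% lower. In DCA_CF 29.4% of the calls over all genes were higher, against 44.0% with RLE size factors and 54.2% with upper-quartile scaling. Among those up, HD6 in DCA_CF (0.16) and HD3 in ULO (0.15) lost the call in 5 and 3 of 6 refits without 1 library and with no filter on low genes. For HD6 these were all but T1 replicate c (limma adjusted p up to 0.135), and for HD3 they were T1 replicates b and c and T2 replicate c (limma adjusted p up to 0.334).

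**Figure D4:**
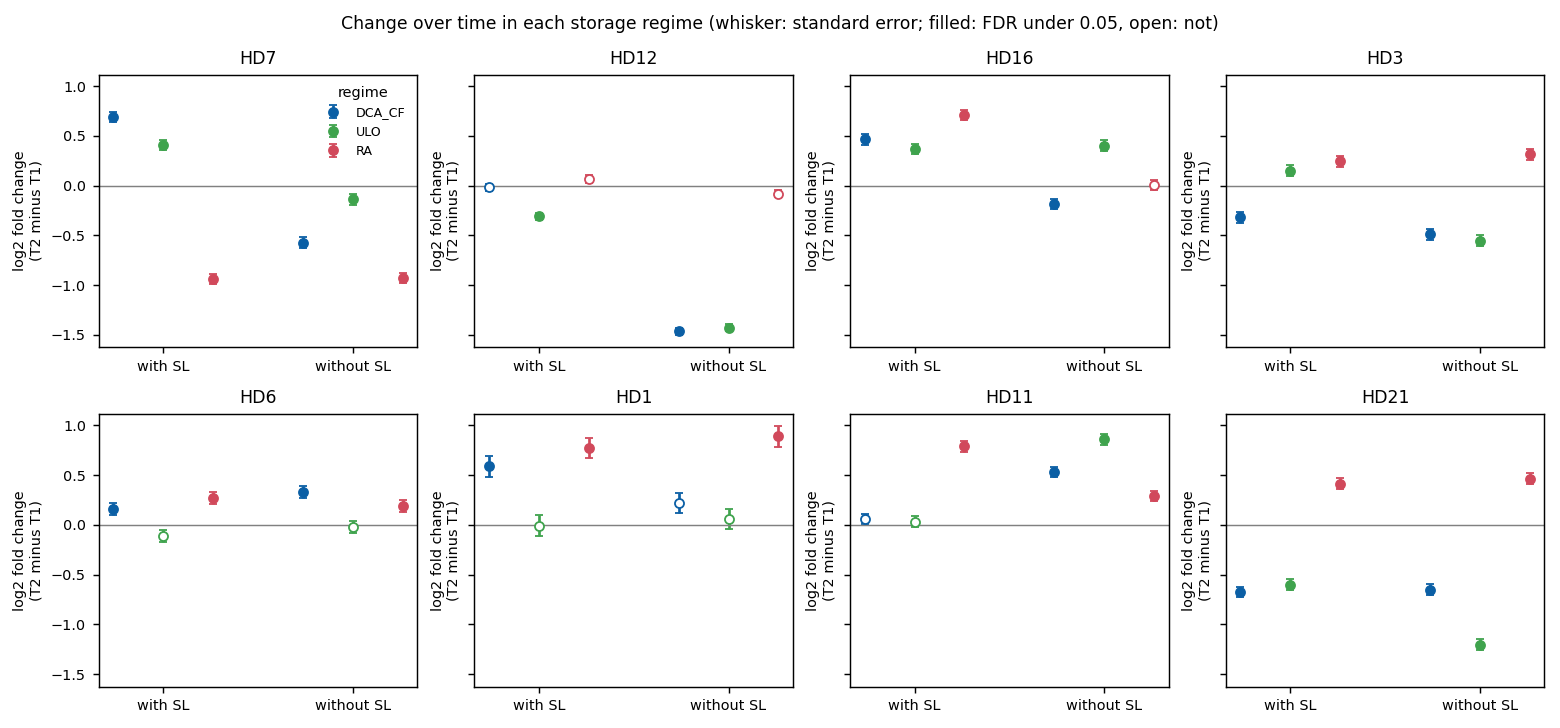
Log2 fold change of T2 minus T1 on the log2(FPKM + 1) scale (vertical axis) for each gene, with and without SL (horizontal axis) and by regime (colour); whiskers are standard errors, and filled points passed an FDR of 0.05 in limma. HD7 with SL is at 0.69 and 0.41 in low oxygen and at -0.94 in RA, and HD12 without SL is at -1.46 and -1.43 in low oxygen with an uncalled point near 0 in RA.

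The differences between the change over time in low oxygen and that in RA are likewise values with no test. With SL, HD7 had the largest, 1.48 ± 0.064, followed in size by HD21 at -1.05 ± 0.067 and HD11 at -0.74 ± 0.0642. The other 5 genes lay between -0.48 and -0.23. Of these, HD12 moved to -0.084, HD16 to -0.15 and HD6 to -0.11 with upper-quartile scaling. Without SL, HD21 at -1.39 ± 0.067 and HD12 at -1.36 ± 0.0458 were the lowest, and HD7 at 0.58 ± 0.064 and HD11 at 0.41 ± 0.0642 the highest. HD16 without SL was at 0.10, and at -0.11 and -0.081 under RLE size factors and upper-quartile scaling. The median over all genes was -0.094 with SL and 0.13 without SL.

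Across the 12 group means, the genes of the list did not follow a single pattern. HD1 and HD11 were closest to each other (Pearson r of 0.796 on the log2 scale), then HD7 and HD12 (0.776) and HD12 and HD3 (0.743). HD6 and HD11 ran most against each other at -0.715. These are descriptions over 12 group means of the same libraries. Ordered by level, neighbouring groups often shared values. The libraries of neighbouring groups overlapped at 3 of the 11 steps for HD7 and HD16, at 4 for HD21, at 5 for HD12 and HD11, at 6 for HD1 and at 7 for HD3 and HD6. For HD7 ULO and DCA_CF at T1 without SL overlapped at the top of the order, and the RA groups filled the last 4 places with no overlap. For HD16 the 5 groups at the top all had SL, and both RA groups without SL overlapped at the bottom.

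The 9 other genes of the table named as homeodomain genes give a wider view. HD5 (also KNAP2) and KNAP1 (also HD10) did not reach 1 FPKM in 3 libraries, and HD18, HD19, HD2 and HD8 reached it in 6, 3, 27 and 10 of the 36 libraries. HD18 and HD19 reached it in low-oxygen libraries alone, HD19 in single libraries of groups whose other libraries were at 0 FPKM. Both entered the tests through groups where they were high, so no count is given over the genes that passed. HD8 and HD2, both low, went both ways without SL. At T2 HD8 averaged 0.624 FPKM in DCA_CF and 0.617 FPKM in ULO, against 1.06 FPKM in RA. At T1 HD8 was higher in low oxygen, at 1.31 and 1.30 FPKM against 0.951 FPKM. HD2 averaged 0.438 FPKM in DCA_CF and 0.944 FPKM in ULO at T1, against 0.932 FPKM in RA. At T2 HD2 was higher in low oxygen, at 2.04 and 2.13 FPKM against 0.697 FPKM. HD13 and HD23 were above 10 FPKM in every library. HD13 was called higher by limma in low oxygen than in RA in all 8 comparisons, and HD23 in all but ULO at T1 without SL, where it was at 0.18 (limma adjusted p = 0.164). Of all genes tested, 19.3% in DCA_CF and 17.6% in ULO were called higher at T2 with SL, 45.1% and 43.1% at T2 without SL, 29.5% and 24.0% at T1 with SL, and 31.8% and 32.0% at T1 without SL. Both genes kept these calls under both other scalings, apart from HD23 in DCA_CF at T1 with SL, which was 0.36 as deposited and 0.24 with RLE size factors (limma adjusted p = 0.0999). Another scaling moved the share of higher calls among all calls by over 10 points in 6 of these 8 comparisons. At T2 with SL upper-quartile scaling gave 58.2% in DCA_CF and 57.9% in ULO, where the deposited values gave 41.2% and 39.3%. RLE size factors gave 51.1% in DCA_CF and 51.6% in ULO at T2 without SL, where the deposited values gave 65.0% and 62.9%. At T1 with SL the share in DCA_CF was 49.1% with RLE size factors and 63.9% as deposited, and in ULO it was 58.2% with upper-quartile scaling and 48.0% as deposited.

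HD13 averaged 44.5 ± 2.42 FPKM in DCA_CF and 35.8 ± 1.58 FPKM in ULO at T1 without SL, against 11.96 ± 1.38 FPKM in RA (SD, n = 3 each). It was higher in both regimes (1.81 ± 0.0604 and 1.51, limma adjusted p = 2.49e-20 and 2.10e-18). Of the named genes compared below, HD13 ran closest to HD12 in pattern. Its calls are therefore a description and not separate support for the pattern of HD12. HD23 averaged 55.9 ± 1.09 FPKM in DCA_CF and 55.9 ± 4.54 FPKM in ULO at T2 with SL, against 27.0 ± 1.40 FPKM in RA (1.02 ± 0.109 in each, limma adjusted p = 5.42e-09 and 6.20e-09). HD14 was listed at 0 in 1 library each of 3 groups, DCA_CF without SL at T1, RA with SL at T1 and RA with SL at T2, while the other libraries of these groups were above 2 FPKM. Its values in DCA_CF at T1 without SL were 0, 40.0 and 42.1 FPKM, so no mean is given for that group. At T2 without SL it had 93.3, 94.7 and 89.5 FPKM in DCA_CF and 62.3, 64.2 and 60.8 FPKM in ULO, against 10.5, 9.38 and 10.0 FPKM in RA. With SL at T2 it was between 5.97 and 7.24 FPKM in low oxygen, against 2.43, 2.65 and 0 FPKM in RA.

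**Figure D5:**
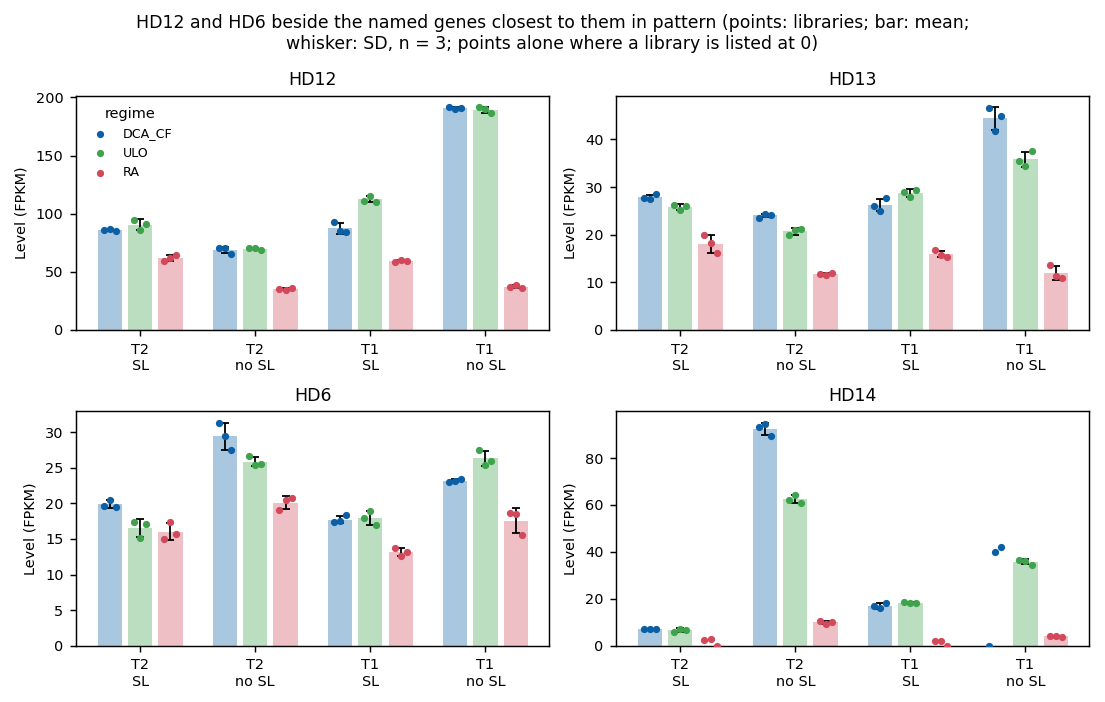
Level in FPKM (vertical axis, own scale per panel) of HD12 beside HD13 and of HD6 beside HD14 in the 12 groups; points are libraries, bars are means and whiskers are SD of 3 libraries, with points alone where a library is listed at 0. HD13, like HD12, is highest in low oxygen at T1 without SL, and HD14 is highest in DCA_CF at T2 without SL, as HD6 is.

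Among 424 genes with a name and a sufficient level, those whose group means ran closest to each homeodomain gene were listed by Pearson's r over the 12 groups. HD13 was closest to HD12 (r of 0.967), ahead of the protein kinase gene CIPK04 (0.953) and the autophagy gene ATG7b (0.924). HD14, with its values of 0 kept in the means, was closest to HD6 (0.884), then MYBR16 (0.854) and CAMTA1 (0.834). For HD16 the list was GID1b, a gibberellin receptor gene (0.972), NAC3 (0.966) and UGE (0.917). For HD7 it was AP2D15 (0.960), MIIMYB (0.911) and MdTCP2B (0.895). HD3 ran closest to CIPK10 (0.922), MYBR17 (0.907) and RGL2b, a DELLA repressor gene of gibberellin signalling (0.894). HD1 ran closest to WRKY1 (0.904), CIPK31 (0.886) and OMT1 (0.868), and HD11 to the lipoxygenase gene LOX8b (0.939), BHLH16 (0.923) and MYB2 (0.920). HD21 had no close match, with MADS20 (0.776), CIPK08 (0.756) and COL12 (0.700) at the head.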

How the data were processed

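Per the labels' protocols, peel RNA of 3 biological replicates in each of 12 groups was made into non-directional libraries and read on an Illumina HiSeq. HISAT2, StringTie and DESeq2 are named in the submitters' processing notes, and the genome build is not given in the sources used here. The deposited values were taken as FPKM made by the authors, although TPM with genes left out would look alike, and the read totals are unknown. The labels call the replicates biological but do not say whether they came from separate fruit lots. The p-values set differences against the spread between these libraries, which may be technical.

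The 32923 of 57423 genes that reached 1 FPKM in 3 or more libraries were fitted with limma 3.58.1 in R 4.3.3 on log2(FPKM + 1), with 1 mean per group over all 36 libraries and Benjamini-Hochberg adjustment over all genes tested. The log scale understates changes of low genes. Low oxygen against RA, and differences between responses built from it, had no test in the 8 genes. The fit was run on simulated data with 200 changed genes and no difference in scaling between libraries, so scaling was not tested there. Names came from the table and a RefSeq gene table (34074 identifiers matched), with or without the prefix Md for markers. The 8 genes, the marker lists and the named-gene rule (the 8 genes, other homeodomain names, and the 3 named genes closest in pattern to each) were chosen with earlier results of these data known. Protein and promoter sequences were not used here. Alternatives were RLE size factors, upper-quartile scaling, a pseudocount of 0.1, no filter, a replicate block and leaving out each library. The main fit did not pair libraries by replicate letter, as no label ties the letters across groups.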

Additional observations from a re-analysis of the deposited data

Results flagged for a closer look

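For the values here, the libraries of 1 group all moved one way and those of another all moved the other way under the same contrast. Each value is a difference between log2 fold changes, and none of these differences was tested. For low oxygen minus RA, both DCA_CF and ULO had to move against RA, and their mean is used.

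For the response to SL at T1, low oxygen minus RA was -1.02 for HD7, -1.58 for HD12, -1.30 for HD3 and -1.22 for HD21. Of these, the fall of HD21 in ULO changed direction with upper-quartile scaling and lost its call with RLE size factors. At T2, DCA_CF minus ULO was 0.51 for HD7 and -0.74 for HD21, but HD7 in ULO and HD21 in DCA_CF changed direction under both other scalings. The SL response at T2 minus that at T1 was 1.26 for HD7 and 1.45 for HD12 in DCA_CF, and 1.12 for HD12 and 0.60 for HD21 in ULO, where HD21 at T1 changed direction with upper-quartile scaling.

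For the change over time with SL, low oxygen minus RA was 1.48 for HD7 and -1.05 for HD21. Without SL it was -0.83 for HD3 and -1.39 for HD21, and DCA_CF minus ULO was -0.59 for HD16. These values share libraries, and the genes were chosen with results of these data known.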

How the results depend on the processing

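The number of the 8 genes called in either direction stayed within 1.5 times under each alternative, apart from 1 comparison. For DCA_CF against ULO at T2 with SL, 1 gene was called, 2 with RLE size factors, 2 with upper-quartile scaling, and 0 to 1 when a library was left out (0 without DCA_CF replicate b). Counts by direction moved further. With upper-quartile scaling, 1 higher and 4 lower became 0 and 6 for DCA_CF against ULO at T1 with SL, and 5 and 2 became 7 and 1 for SL in ULO at T2 (6 and 1 with RLE size factors). For DCA_CF against ULO at T2 without SL, 3 and 2 became 2 and 3 under both scalings. For T2 against T1 without SL, 2 and 5 became 1 and 5 in DCA_CF under both scalings, and 5 and 1 became 5 and 2 in RA with upper-quartile scaling and 4 and 2 without T2 replicate c. For T2 against T1 with SL, 4 and 2 became 6 and 2 in DCA_CF under both scalings. Directions turned in 14 gene values that were called under either setting or were not tested, and in 13 others that were called under neither. With RLE size factors they came to -0.0027 for HD11 in DCA_CF against RA at T1 with SL, 0.10 for HD7 and 0.15 for HD3 with SL in ULO at T2, 0.0019 for HD21 with SL in DCA_CF at T2, 0.087 for HD12 at T2 against T1 in DCA_CF with SL, 0.18 for HD7 and 0.014 for HD6 in the difference between SL responses at T2, and -0.11 for HD16 in the difference between time responses without SL. With upper-quartile scaling they came to 0.017 for HD3 in ULO against RA at T1 with SL, -0.15 for HD11 in DCA_CF against ULO at T1 with SL, 0.010 for HD21 with SL in ULO at T1, 0.17 for HD7 and 0.21 for HD3 with SL in ULO at T2, 0.073 for HD21 with SL in DCA_CF at T2, 0.16 for HD12 at T2 against T1 in DCA_CF with SL, 0.17 for HD7 in the difference between SL responses at T2, and -0.081 for HD16 in that between time responses without SL. HD6 in ULO against RA at T2 with SL ranged from -0.000297 to 0.10 when a library was left out, and its differences between SL responses at T1 and between time responses without SL from -0.098 to 0.021 and from -0.073 to 0.045. The causes were not tested. Leaving out a library ended 33 gene calls and added 8 over all refits. A scaling moved the median of all genes by up to 0.24.

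Same-letter libraries did not deviate together (mean correlation 0.0029, against -0.0015 for other letters, and 17 of 36 libraries closest to one of their own letter). With the letter as a replicate block, HD3 at T2 against T1 in ULO with SL stayed at 0.15 but lost its call (limma adjusted p = 0.0517), and no other gene call changed. Without read totals, counting error is unknown.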

Other observations

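A pair of genes named HB in the matched gene table, hb-1 (LOC103411168) and HB1 (LOC103404339), was kept out of the homeodomain lists because that name is also used for haemoglobins. Both were low, at no more than 6.23 and 2.80 FPKM in any library. hb-1 reached 1 FPKM in 17 of the 36 libraries, mostly those with SL, so it entered the tests through groups where it was high. With SL, hb-1 was higher by 1.44 ± 0.164 in DCA_CF, 1.51 in ULO and 1.81 in RA at T2 on the log2(FPKM + 1) scale (limma adjusted p = 1.30e-08, 5.40e-09 and 1.54e-10). At T1 the difference was -0.022 in DCA_CF (limma adjusted p = 0.927), 0.85 in ULO and 0.75 in RA (limma adjusted p = 5.21e-05 and 0.000229). With SL at T2, 16.7% of all genes were called higher in DCA_CF, 18.6% in ULO and 27.3% in RA. The shares at T1 were 37.0%, 27.3% and 26.4%. HB1 averaged less with SL at T1, at 1.20 FPKM in DCA_CF, 1.38 in ULO and 0.289 in RA, against 2.27, 2.55 and 1.37 FPKM. At T2 it averaged 1.32 FPKM in DCA_CF and 1.18 FPKM in ULO with SL, against 1.96 and 2.14 FPKM. In RA at T2 HB1 averaged 0.745 FPKM with SL and 0.694 FPKM without SL.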
